A study of Mus musculus with 8 samples.

Results

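The interferon regulatory factor (IRF) genes were followed through the 2 kinds of data of the study, nascent RNA and chromatin occupancy. The group was a list of 8 named genes, namely Irf1, Irf2, Irf3, Irf5, Irf7, Irf8, Irf9 and Stat2. Stat2 belongs to the STAT family and is not itself an IRF gene. Of these, 5 had a row in both gene tables (Irf2, Irf3, Irf7, Irf9 and Stat2) among 11364 genes. Irf1, Irf5 and Irf8, like Irf4, a family member outside the group, had no row among the genes analysed here, so their RNA was not analysed here. None of the 5551 merged KLF1 sites analysed here had one of the 8 genes as its closest transcription start site (TSS) in the deposited table, so sites were related to these genes through the GENCODE M1 annotation instead. By that annotation 1 site lay within 10 kb of a TSS of the group, at Irf2, and 10 sites lay within 50 kb.

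KLF1 is a zinc finger transcription factor that drives red cell genes. K1 cells are an immortalised erythroid line from Klf1-/- fetal liver, so every group here lacks endogenous KLF1. K1-E339K-ER cells are K1 cells with a retroviral transgene for KLF1-E339K, the mouse counterpart of a mutation that causes a dominant congenital dyserythropoietic anemia, fused to an estrogen receptor domain that enters the nucleus with 4-hydroxytamoxifen (4-OHT). K1-ER cells carry wild type KLF1 in the same form. The labels give 3 K1 and 3 K1-E339K-ER libraries of 4sU-labelled RNA, the latter from clones 1B, 2A and 2B, and 1 KLF1-E339K-ER ChIP library with 1 input library, both from clone 2A. The ChIP library was made from 3 pooled replicates after 3 h in 200 nM 4-OHT. The labels state 500 µM 4sU for 30 min for the RNA, with 200 nM 4-OHT in all libraries except 1 K1 library labelled as ethanol vehicle. The sources disagree on these points, since the protocol text of that library names 4-OHT and the study's methods give another 4sU dose and labelling time. The K1-ER libraries come from earlier work of the same laboratory and are not among the samples.

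IRF proteins bind DNA through a tryptophan-rich domain and turn on genes of the antiviral interferon response. IRF3 and IRF7 act downstream of sensors of foreign nucleic acid and switch on the type I interferon genes. IRF9 and STAT2 act together in the complex that carries the signal of the interferon receptor to the nucleus, whereas IRF1 and IRF2 compete for the same elements as an activator and mainly a repressor. IRF5 and IRF8 are best known from macrophages, dendritic cells and B cells.

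The sites were searched on both strands for the 2 recognition motifs of 9 bases that the study assigns to the proteins. The pyrimidine motif of wild type KLF1 reads NGGGCGTGG, NGGGCGGGG, NGGGTGTGG or NGGGTGGGG, and the purine motif of KLF1-E339K reads NGGGAGTGG, NGGGAGGGG, NGGGGGTGG or NGGGGGGGG, so they differ at base 5 and their matches may overlap. The 4 stretches of mm9 sequence that follow (plus strand) are those that hold a match, either anywhere in the site at the Irf2 promoter or within 50 bp of the midpoint for the other sites within 50 kb of the group. Capitals mark the matched bases.
Irf2 promoter (chr8:47825003-47825092): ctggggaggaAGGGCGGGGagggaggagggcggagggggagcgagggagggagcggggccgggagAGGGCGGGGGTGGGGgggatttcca
Rras site, downstream of Irf3 (chr7:52272732-52272832): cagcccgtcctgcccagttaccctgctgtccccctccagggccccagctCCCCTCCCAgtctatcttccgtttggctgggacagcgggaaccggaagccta
Prr12 exon site, downstream of Irf3 (chr7:52283403-52283503): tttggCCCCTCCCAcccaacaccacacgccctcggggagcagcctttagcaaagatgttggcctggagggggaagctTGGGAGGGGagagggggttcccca
Mir210 site, downstream of Irf7 (chr7:148407723-148407823): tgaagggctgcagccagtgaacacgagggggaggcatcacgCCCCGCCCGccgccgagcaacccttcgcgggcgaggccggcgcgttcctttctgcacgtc

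In the Irf2 promoter the capitals cover 3 pyrimidine matches and 1 purine match, centred 82, 27 and 21 bases before the Irf2 TSS for the pyrimidine motif and 23 bases before it for the purine motif. The purine match and 2 of the pyrimidine matches overlap in 1 run of G-rich sequence. Within the windows shown, the Rras site holds 1 purine match, the Prr12 exon site 2 purine matches and the Mir210 site 1 pyrimidine match. Over their whole length, as counted at Irf2, the Rras site holds the same 1 purine match, the Prr12 exon site 3 purine matches and 1 pyrimidine match, and the Mir210 site 1 purine match and 3 pyrimidine matches.

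The site at the Irf2 promoter was occupied by both proteins to nearly the same degree. It lay on chromosome 8 from 47824791 to 47825121 (mm9), with its midpoint 143 bp upstream of the Irf2 TSS. The deposited concentration, which is log2 of the authors' mean normalised read count for 1 protein, was 5.55 for wild type KLF1-ER and 5.45 for KLF1-E339K-ER. This is a difference of -0.10 (mutant minus wild type), or 46.9 against 43.7 normalised reads. The deposited concentrations come without values per replicate, so no error is given here and no difference between the proteins was tested. Over all 5551 sites 546 (9.84%) had concentrations that differed by less than 2-fold, and 199 (3.58%) had both concentrations at least as high as at Irf2. The median difference of all sites was 2.60 in favour of the mutant. Relative to that median the Irf2 difference was -2.70, so the values were near equal on the deposited scale but not relative to the median. The wild type stood at its lowest listed value at 1424 sites (25.7%) and the mutant at 147 (2.65%). The median may therefore reflect which sites were merged, and centring on it cannot tell this from a difference in scaling. The deposited table assigns this site to Gm16675, a long intergenic noncoding RNA on the opposite strand that starts 230 bp from the Irf2 TSS, and the site's midpoint is 87 bp from that start. The site spans both starts, so occupancy of the Irf2 promoter and of the Gm16675 promoter cannot be told apart.

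Toward the other members the picture varied. A difference of at least 4-fold, or 2 on the log2 scale, was used to call a site for 1 protein. Of the 10 sites within 50 kb, 3 were called toward the mutant, 3 toward the wild type and 4 toward neither. Over all sites 55.3% were called toward the mutant and 23.3% toward the wild type. With differences centred on the median of all sites, 1 of the 10 was called toward the mutant and 6 toward the wild type. The split thus depends on where the differences are centred. Whether that reflects the scaling of the 2 proteins or the make-up of the merged sites cannot be told apart.

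**Figure D1:**
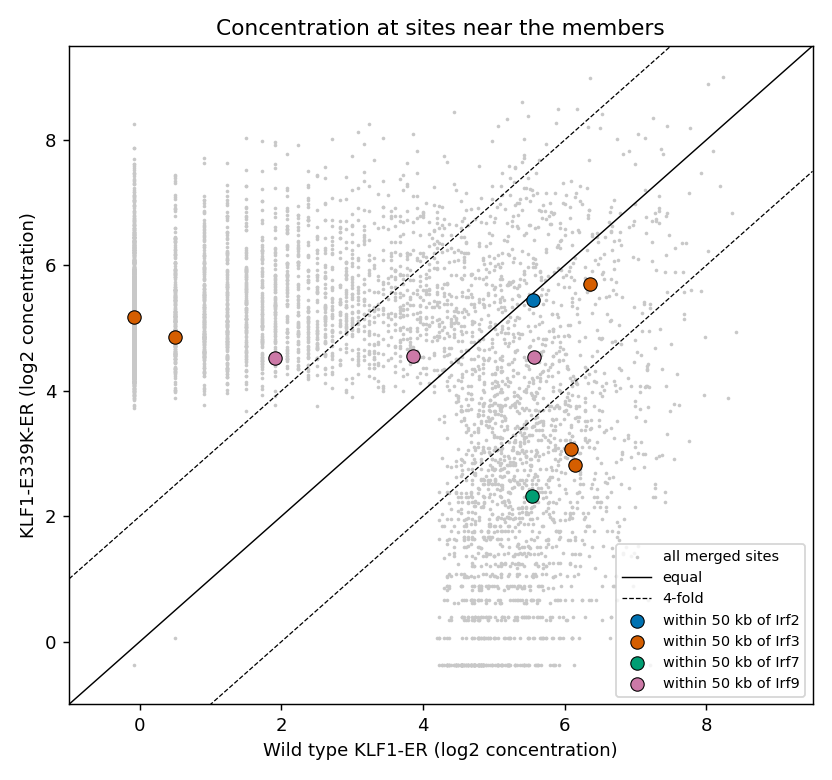
Log2 concentration of wild type KLF1-ER (x axis) against KLF1-E339K-ER (y axis) at all 5551 merged sites (grey), with the 10 sites within 50 kb of Irf2, Irf3, Irf7 or Irf9 in colour. The solid line marks equal values and the dashed lines a 4-fold difference, and the Irf2 site sits beside the solid line at 5.55 and 5.45.

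Irf3 had 5 sites within 50 kb, the largest number in the group. Each distance was taken from the nearest of its 9 annotated starts, which was not the same start for all sites. The nearest lay 11.9 kb upstream in an intron of Prmt1, within 1 kb of a Prmt1 TSS. There KLF1-ER reached 6.36 and KLF1-E339K-ER 5.70 (difference -0.66). Over its whole length this site held 13 purine matches and 1 pyrimidine match, though none within 50 bp of its midpoint. The Rras site 16.0 kb downstream of the nearest Irf3 start had 5.17 for the mutant against -0.09 for the wild type. This is the lowest wild type value listed, which 1424 sites (25.7%) share. The Rras difference of 5.26 is therefore a lower bound. The Prr12 exon site 26.7 kb downstream also favoured the mutant, at 4.86 against 0.50. Their windows printed above hold purine matches, and the Prr12 exon site holds a pyrimidine match outside its window. The purine matches in these windows all carry A at base 5. In the paper's in vitro assays neither protein had strong binding to a probe with A there, and their affinities for it were similar. A neighbouring pair in introns of Tsks, 44800 and 45485 bp upstream, favoured the wild type instead, at 6.14 against 2.81 and 6.09 against 3.07. Neither held a match within 50 bp of its midpoint. Over the whole site, that at 44800 bp held 2 pyrimidine matches and that at 45485 bp none. Around Irf3 the sites called toward the wild type thus lay upstream and those called toward the mutant downstream, and all 5 were nearer to the TSS of another gene than to that of Irf3.

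The site nearest to Irf7 was that of Mir210, 43.3 kb downstream of the nearest of 11 annotated Irf7 starts. It had 5.54 for the wild type and 2.32 for the mutant (difference -3.22). Its window printed above holds a pyrimidine match, and the rest of the site holds matches to both motifs.

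Irf9 had 3 sites between 12134.5 and 18348 bp upstream. A pair lay within 1 kb of starts of both Psme2, which encodes an interferon-inducible activator of the proteasome, and Rnf31, which encodes a ubiquitin ligase. The first, 12.1 kb from the Irf9 TSS on chromosome 14 from 56210075 to 56210472 and by the annotation nearest to an Rnf31 TSS (271.5 bp), had 4.53 for the mutant and 1.91 for the wild type (difference 2.62). The second, 12530 bp away in an exon of Psme2, had 4.56 and 3.86 in the same order (difference 0.70), so the mutant values of the pair were alike and the wild type values were not. The third, 18348 bp away, is assigned to Emc9 in the deposited table and had 4.54 for the mutant and 5.57 for the wild type (difference -1.03). None of the 3 held a match to either motif within 50 bp of its midpoint. Over the whole site, the first held none, the second 2 purine matches and 1 pyrimidine match, and the third 2 purine matches.

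**Figure D2:**
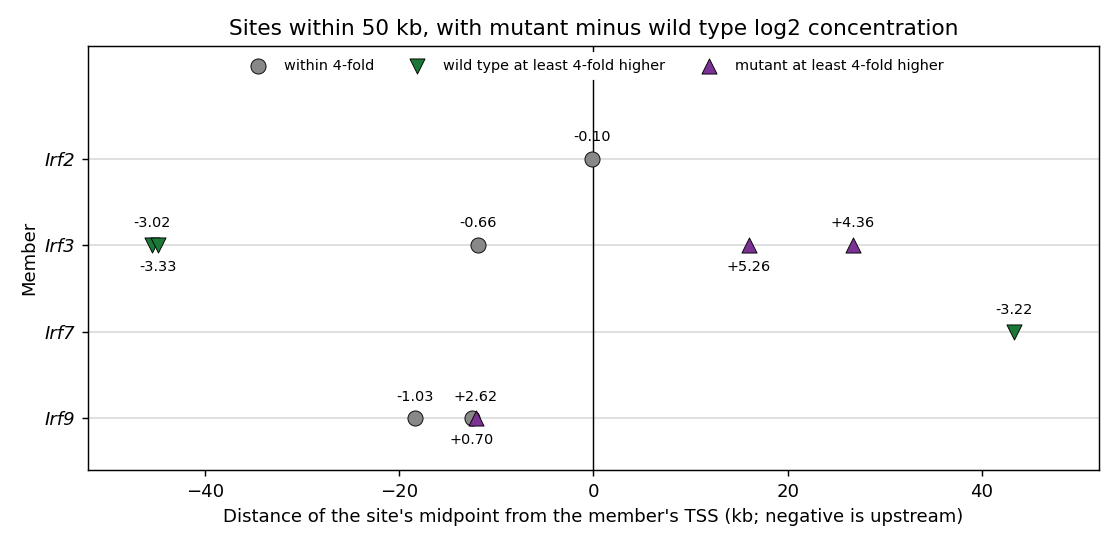
Distance in kb of the midpoint of each site within 50 kb from the nearest TSS of Irf2, Irf3, Irf7 and Irf9 (negative is upstream on the gene's strand). The number beside each of the 10 points is the mutant minus wild type difference of the log2 concentration, from -3.33 to 5.26, and only the Irf2 point lies at the TSS itself.

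For the remaining members the nearest site lay farther away. It was 84.4 kb from a TSS of Irf1 (wild type 6.67, mutant 1.49), 87.2 kb from Irf5 (wild type -0.09, mutant 4.23), 120.3 kb from Stat2 (wild type -0.09, mutant 4.64) and 146.9 kb from Irf8 (wild type 4.93, mutant 3.52). Of the 5 genes with RNA values, 1 (20%) had a site within 10 kb, against 3146 (29.6%) of the 10636 genes of the tables that had an annotated TSS. Within 50 kb the numbers were 4 of 5 and 5434 (51.1%). With so few genes, neither share is read as a difference from the background.

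Motif matches at the 10 sites can be read only against those at all sites. Within 50 bp of the midpoint 2 of the 10 sites (20%) held the purine motif and 1 (10%) the pyrimidine motif, whereas 35.5% and 35.3% of all sites did. The counts rose to 7 and 6 when the whole site was searched, against 58.4% and 58.6% of all sites, since at Irf2 and elsewhere the matches lay away from the midpoint.

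The promoters of the members were searched in the same way, from 250 bases before to 50 after each start in the RefSeq sequences (GRCm38.p6), in which all 8 genes matched with 11 windows. A gene was counted if any of its windows held a match. Irf1, Irf2, Irf7 and Irf8 held both motifs, Irf3 the purine motif only, Irf5 and Stat2 the pyrimidine motif only, and Irf9 neither. Irf1 and Irf8 each had another window that held neither motif. The pyrimidine motif was thus found for 6 of 8 genes (75%), against 32.5% of 27025 genes with a promoter in that table. The purine motif was found for 5 of 8 (62.5%), against 24.5%. With 8 genes, neither share is read as a difference from the background. Irf2 alone among the 8 had a merged site at its promoter. A match describes the letters of the window and not a bound site.

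The nascent RNA tables give 1 level per gene, the mean log2 CPM (read counts scaled to the library total) over all libraries of the authors' fit, which the table does not list. It is the same in both tables and therefore says nothing of the difference between the cell lines. The levels were divided by gene length, on the assumption that reads of nascent RNA fall, and were counted, along the whole gene. How the authors counted reads is not known, so this assumption was not tested. Per kb, Irf3 stood highest at 3.20 on the log2 scale (9.19 CPM per kb, percentile 86.3 of all genes), from a mean of 5.58 log2 CPM over 5201 bp. Irf9 followed at 0.89 (1.85 CPM per kb, percentile 51.2), close to the median of all genes of 0.82. Irf2 stood at 0.05 (1.04 CPM per kb, percentile 37.2). Its total of 6.80 log2 CPM was the highest of the group, but it is spread over a gene of 107714 bp. Irf7 and Stat2 were the lowest, at -1.78 and -1.88 (0.292 and 0.273 CPM per kb, percentiles 16.9 and 16.1).

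The order was thus Irf3, Irf9, Irf2, Irf7 and Stat2, with 2 of the 5 above the median of all genes. Irf3, the factor that awaits activation in resting cells, was 4.96-fold above Irf9 and 31.5-fold above Irf7, its partner in the interferon response, per kb. Irf7 and Stat2, both themselves induced by interferon, differed by 1.07-fold per kb. Without the length correction their order turned, with Stat2 at 6.07 CPM (percentile 18.6) and Irf7 at 0.946 CPM (percentile 2.85). At so low a level the folds that involve Irf7 are uncertain. The tables hold no value per library, so it cannot be told which neighbours in this order differ beyond the spread between libraries.

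**Figure D3:**
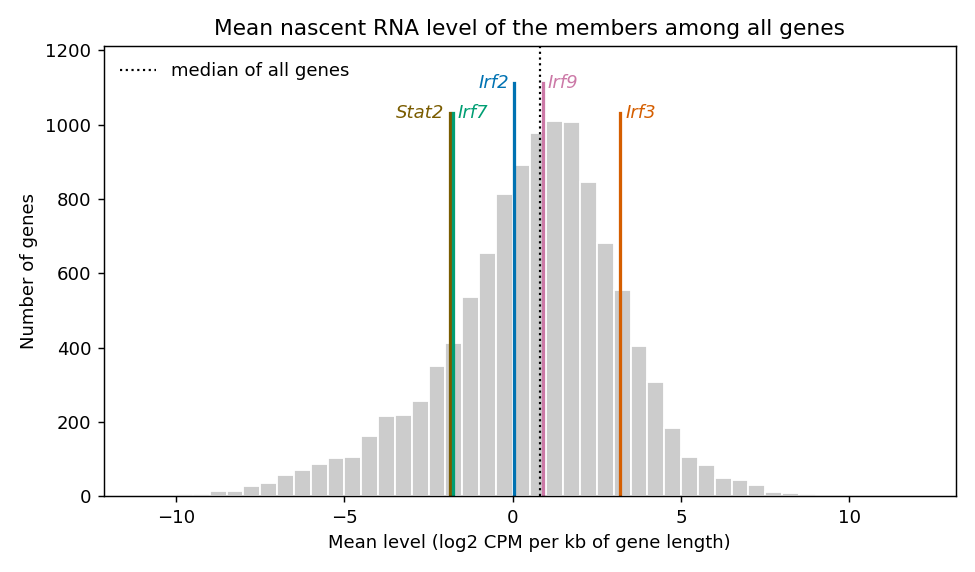
Number of genes (y axis) by mean nascent RNA level in log2 CPM per kb of gene length (x axis) for 11364 genes, with the 5 listed members as coloured lines and the median of all genes dotted. Irf3 stands well above the median at 3.20, Irf9 and Irf2 near it, and Irf7 and Stat2 below it at -1.78 and -1.88.

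The erythroid label of the lines was checked against marker genes. All 10 erythroid markers examined were listed, with a median level of 3.24 log2 CPM per kb. They ran from Alas2 at 0.75, below the median of all genes of 0.82, to Gata1, the erythroid master regulator, at 6.68. Of 11 myeloid and lymphoid markers 3 were listed, namely Cd68 at -0.52, Adgre1 at -3.27 and Spi1 at -3.86 log2 CPM per kb. Without the length correction Adgre1 stood at 3.69 log2 CPM. Spi1 had a site 15.5 bp from its TSS with 5.32 for the mutant and -0.09 for the wild type. A site called toward the mutant lay within 10 kb of 1 of the 3 listed myeloid and lymphoid markers. The same held for 3 of the 10 erythroid markers and 12.2% of all genes. Toward the wild type the numbers were 0, 1 and 6.09%. With so few markers these shares are not read as differences. Defining genes such as Ptprc, Csf1r, Itgam and Cd3e, like Irf5 and Irf8, had no row among the genes analysed here.

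Other genes of the interferon pathway were counted from fixed lists of 80 genes, of which 42 had a single row. All 8 receptors and kinases, all 6 other STAT genes and all 3 IRF2-binding proteins were listed, against 7 of 16 genes of nucleic acid sensing, 14 of 35 interferon-stimulated genes, 3 of 7 negative regulators and 1 of 3 ligands. Their median level was 0.36 log2 CPM per kb, against 0.82 for all genes. By the closest TSS of the deposited table, 12 of the 42 (28.6%) had a site within 10 kb, against 21.3% of all genes. A site called toward the mutant was found for 9 genes, among them Stat3, Stat5b, Pias1, Irf2bp1, Irf2bp2, Irf2bpl, Oas3 and Bst2 (21.4%, against 12.2% of all genes). A site called toward the wild type was found for 3, namely Ifngr2, Irf2bpl and Bst2 (7.14%, against 6.09%). Stat3 and Stat5b, which encode other factors of the STAT family, each had a site called toward the mutant within 1 kb (5.87 against 0.91, and 4.14 against -0.09). Ifngr2, a chain of the receptor for interferon gamma, had a site 248.5 bp from its TSS with 5.79 for the wild type and -0.38, the lowest value listed, for the mutant. Other pathway genes had promoter sites that differed by just under 2-fold on the deposited scale, more than the Irf2 site did (difference -0.10). For Stat5a it lay at 139.5 bp (4.67 for the mutant and 3.77 for the wild type, difference 0.90). For Ticam1, the gene of an adaptor between Toll-like receptors and IRF3, it lay at 74 bp (6.61 and 5.62, difference 0.99). For Pias1 it lay at 121.5 bp (4.09 and 5.06, difference -0.97).

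**Figure D4:**
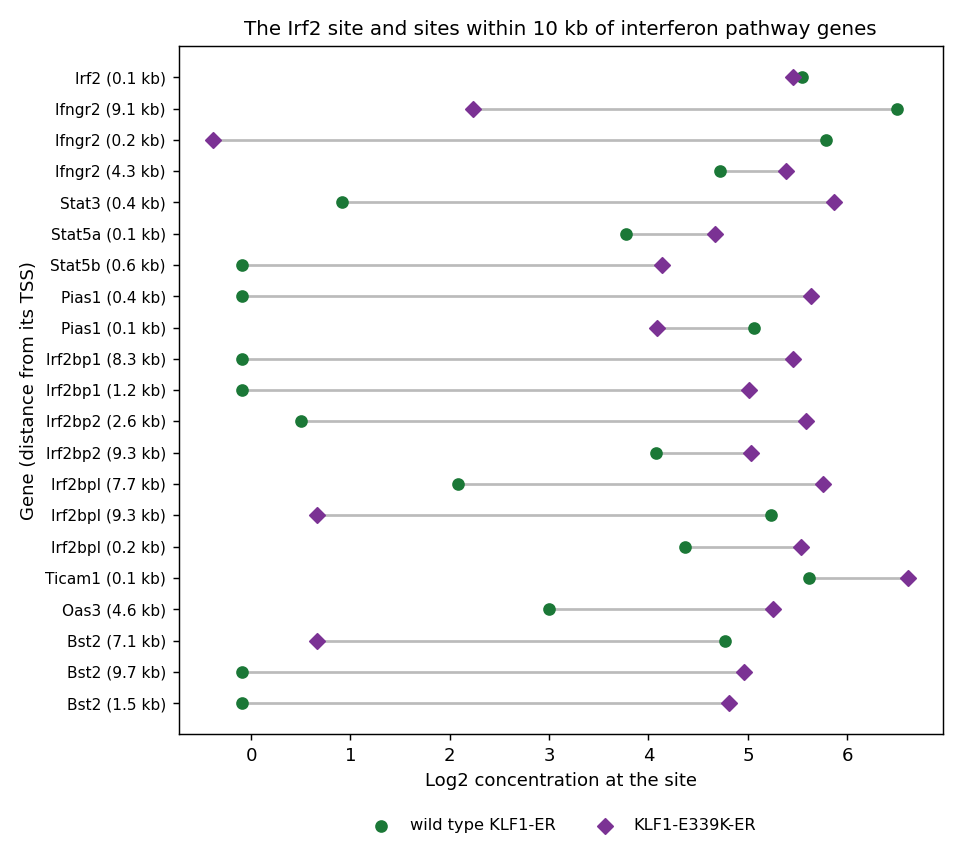
Log2 concentration of wild type KLF1-ER (green circles) and KLF1-E339K-ER (purple diamonds) at the Irf2 promoter site and at sites whose closest TSS, within 10 kb, is that of a listed interferon pathway gene (distance in kb in brackets, not all sites shown). At Irf2 the points nearly touch (5.55 and 5.45), whereas at Stat3 they stand at 0.91 and 5.87.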

How the data were processed

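The authors sequenced 4sU-labelled RNA and ChIP DNA on the Ion Proton and mapped reads to mm9 with Tophat2 (2.0.10 in the submitters' processing notes) and TMAP. The authors deposited log2 values only, namely voom's mean log2 CPM per gene over all libraries of a limma fit, and DiffBind's log2 concentration of each protein at merged MACS2 and GEM peaks. Counting tool, annotation and the versions of limma and DiffBind are not given in the sources used here. The tables also hold the authors' log2 fold changes, moderated t, p-values and false discovery rates, which were not used, so no change on induction is reported. Depth per library is unknown.

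Genes were paired between tables by Entrez identifier, length and mean expression (11364 pairs, 779 with another symbol in the second table). Levels per kb are mean log2 CPM minus log2 of gene length in kb. Sites were placed on GENCODE M1 and NCBIM37 (mm9), by midpoint, with distances to a member taken from its nearest annotated TSS. Motifs were exact matches within 50 bp of midpoints, and the search was tested on simulated sequences. Python 3.11.15 and pandas 2.3.3 were used. The named genes were the 8 members, pathway genes with a site within 10 kb, and some genes of the marker lists. Ptpn11, with 2 rows, was left out. Members and lists were chosen with earlier results of these data known. The limit of 50 kb was chosen after seeing that the deposited closest TSS gave no site. Alternatives were other distances, folds, windows, scalings and filters. Some genes of the lists are counted but not reported singly here.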

Additional observations from a re-analysis of the deposited data

How the results depend on the processing

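The deposited means give no value per library, so no library could be left out, and precision is unknown. No paired analysis was possible because the tables carry no column per replicate. The KLF1-E339K-ER ChIP is moreover 1 library made from 3 pooled replicates. The count of sites assigned to the group was 0 within 1 kb, 10 kb or any distance and with the closest TSS of the annotation, but any TSS of a member in the annotation gave 1 site within 10 kb and 10 within 50 kb, 2 settings added after seeing the data. Among the 10 sites, the number called toward the mutant fell from 3 to 1 with a concentration of at least 5 for the higher protein, and to 1 when differences were centred on the median of all sites, which raised the number toward the wild type from 3 to 6. Centring also moved the Irf2 difference from -0.10 to -2.70. Calls at 2-fold and 8-fold and with 1 normalised read added stayed within 1.5 times of these counts. Windows of 100 bp found the purine motif at 6 and the pyrimidine motif at 5 sites, and whole sites at 7 and 6. Of the 5 listed members 2 lay above the median of all genes. Leaving out genes with a mean log2 CPM under 1, Irf7 among them, gave 1, since Irf9 went from percentile 51.2 to 47.1. With a pseudocount of 1 CPM Irf7 went from percentile 16.9 to 24.8 and Stat2 from 16.1 to 15.6. Without length correction Irf2 stood at percentile 78.1, above Irf3 at 55.3, Irf9 at 25.8, and Stat2 at 18.6, above Irf7 at 2.85. Pathway genes with a site called toward the mutant numbered 4 within 1 kb and 14 within 50 kb, and those toward the wild type 1 within 1 kb.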

Other observations

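The 3 genes listed as IRF2-binding proteins all had sites within 10 kb, against 21.3% of all genes. With 3 genes this share is not read as a difference from the background. They stood high per kb among the genes analysed here. Irf2bp2 had a mean level of 6.18 log2 CPM per kb (percentile 98.9), Irf2bp1 4.39 (percentile 94.6) and Irf2bpl 3.51 (percentile 89.2), each above Irf2 and the other listed members per kb. Without the length correction Irf2bp1 (5.82 log2 CPM) and Irf2bpl (5.55) lay below Irf2 (6.80), and Irf2bpl also lay below Irf3 (5.58). Both sites of Irf2bp1, 1240.5 and 8256.5 bp from its TSS, were at the lowest listed wild type value of -0.09 with 5.01 and 5.45 for the mutant. Irf2bp2 had a site 2561.5 bp from its TSS at 5.59 for the mutant and 0.50 for the wild type, and another 9252.5 bp away at 5.03 and 4.08. Irf2bpl was the closest TSS of 10 sites, up to 71.9 kb away, and they went both ways. The site 169.5 bp from its TSS had 5.54 for the mutant and 4.37 for the wild type, while that 9256 bp away had 0.66 and 5.23 in the same order.

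Of 35 interferon-stimulated genes 14 were listed, 8 of them above the median of all genes per kb. Their levels ran from -5.91 to 3.00 log2 CPM per kb. Oas3, an antiviral oligoadenylate synthetase, had a site 4603 bp from its TSS with 5.25 for the mutant and 3.00 for the wild type. Bst2, which encodes the antiviral membrane protein tetherin, had 3 sites within 10 kb, of which 2 were called toward the mutant and 1 toward the wild type. Pias1, an inhibitor of STAT signalling, had a site 380.5 bp from its TSS with 5.64 for the mutant and -0.09 for the wild type.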
